A study of Homo sapiens with 6 samples.

Results

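Cytosolic ribosomal proteins are the protein part of the ribosome that translates nuclear-encoded messages. Here they were taken as the array probes whose target name begins with RPL or RPS and a digit, or is RPLP0, RPLP1, RPLP2 or RPSA. Kinases of the RPS6K family (17 probes) and pseudogene names (4 probes) were left out. This gave 97 of the 48701 probes, for 80 gene names: 29 genes of the small (40S) subunit with 35 probes, 40 genes of the large (60S) subunit with 51 probes, and 11 other names with 1 probe each. The other names are paralogs such as RPL39L and RPS27L, the listed names RPS26L and RPS26L1, and RPS19BP1, which encodes a binding partner of RPS19 and not a ribosomal protein. No RPLP1 probe met the rule, and genes with no probe of such a name were not analysed here.

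The cells were HEK293, an established line from human embryonic kidney. The GFP group had been transfected with the plasmid pEGFPN3 and the SNRK group with the same plasmid carrying human SNRK, in both cases with Lipofectamine and Plus Reagent. RNA was taken after 48 hours from 3 samples in each group, each hybridised to 1 Illumina bead array. Transfection was transient, the labels give no share of cells that took up the plasmid, and nothing in them says whether the replicates were grown apart. The p-values take only array-to-array spread into account, and that spread may be technical. SNRK is a protein kinase of the AMPK-related family, and the comparison asks which messages differ when it is supplied in excess.

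In human cells each cytosolic ribosomal protein is, with few exceptions, encoded by 1 gene whose message is abundant and long-lived. The subunits are assembled in the nucleolus from ribosomal RNA and imported proteins, and ribosomal proteins made in excess are degraded. Most of these messages start with a C and an unbroken run of pyrimidines, the terminal oligopyrimidine (TOP) tract. Through it the kinase mTORC1 and its effector LARP1 control their translation, so that protein output can change while message level does not.

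The start sites below show this feature for some members named in the results and for paralogs that differ in it at the annotated start. A single start is shown per gene, and RPL34 and RPS27A also have annotated starts without the feature. RPL32 and RPL10A, which have it at no annotated start, are not shown. Each line gives 30 bases before the annotated start and the first 20 transcribed bases, 5′ to 3′. Sequences are from RefSeq, build GRCh38.p14. Capitals mark a C at the first transcribed base together with the C and T bases that follow it without a break, where at least 4 follow. RPLP2 and RPL14 had the smallest p-values of all members, and RPS27L, RPL26L1 and RPL36AL are the paralogs of RPS27, RPL26 and RPL36A. The annotated start of RPL36AL lies inside an unbroken stretch of C and T, so a start a few bases earlier would show the feature.
RPLP2 (chr11:809937-809986, + strand): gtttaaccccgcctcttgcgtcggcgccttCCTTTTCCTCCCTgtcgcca
RPL14 (chr3:40457309-40457358, + strand): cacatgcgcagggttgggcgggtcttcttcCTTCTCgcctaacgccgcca
RPL34 (chr4:108620546-108620595, + strand): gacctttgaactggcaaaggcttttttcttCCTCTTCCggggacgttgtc
RPS27A (chr2:55232658-55232707, + strand): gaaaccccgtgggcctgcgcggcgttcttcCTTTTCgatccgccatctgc
RPS6 (chr9:19380217-19380266, - strand): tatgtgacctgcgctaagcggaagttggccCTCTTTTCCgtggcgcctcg
RPS27 (chr1:153990732-153990781, + strand): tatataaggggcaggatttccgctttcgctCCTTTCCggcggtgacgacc
RPS27L (chr15:63157458-63157507, - strand): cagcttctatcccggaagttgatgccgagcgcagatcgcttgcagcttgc
RPL26 (chr17:8383174-8383223, - strand): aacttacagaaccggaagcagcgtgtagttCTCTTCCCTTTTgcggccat
RPL26L1 (chr5:172958699-172958748, + strand): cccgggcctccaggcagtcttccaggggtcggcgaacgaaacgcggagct
RPL36A (chrX:101390981-101391030, + strand): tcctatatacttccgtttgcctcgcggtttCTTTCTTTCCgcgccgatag
RPL36AL (chr14:49620607-49620656, - strand): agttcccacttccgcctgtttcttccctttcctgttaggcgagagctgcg

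Of the 80 gene names, 62 had a start site in the RefSeq table. The run of a C and at least 4 further pyrimidines stood at an annotated start of 42 of these 62 genes (67.7%), against 5.14% of the 27305 genes in the whole table. It was present in 17 of 23 genes of the 40S subunit, in 23 of 33 of the 60S subunit and in 2 of 6 of the other names. The sequence CCGGAA, the core bound by ETS factors, stood on 1 strand or the other between 250 bases before and 50 after the start in 35 of 62 genes (56.5%), against 20.1% of all genes. The sequence TATAAA, read only on the strand with the sequence of the message, stood in that window in 4 of the 62 (6.45%), against 8.99% of all. These matches describe letters at annotated starts, and a start annotated a few bases away from the true one would miss the run.

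Ribosomal protein probes gave some of the brightest signals on every array. A signal here is the bead intensity before normalization, in arbitrary units, and it depends on the probe, so it does not rank the messages by abundance. The 97 probes are 0.199% of the table and carried between 6.83% (SNRK 1 and GFP 2) and 7.02% (SNRK 2) of the summed signal of an array. Of the 99 probes in the whole table with a mean signal over 20000, 34 were members. At the other end, 12 member probes had a mean signal under 520.

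On each of the 6 arrays the same number of member probes, 91, was detected (detection p under 0.01), for 75 genes. The 6 that were not detected in all 3 arrays of any group were probes of RPL10L, RPL22L1, RPL3L, RPS26L1 and RPS4Y1 and 1 of the 2 probes of RPL10. RPL10L is known from testis and RPL3L from striated muscle. RPL10 itself was measured by its other probe, ILMN_1695261, which read 33261, 31599 and 31681 on GFP 1 to 3 and 32823, 33885 and 33389 on SNRK 1 to 3. Its log2 change of 0.04 did not pass the test (adjusted p = 0.733).

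The arrays were alike in depth of signal, with 15133 to 16190 probes detected of 48701 and median signals of 93.8 to 102. The SNRK probe rose 1.35-fold in the SNRK group (log2 change 0.44 ± 0.09 SE, limma adjusted p = 0.0219), and whether it lies in the part of the message carried by the plasmid was not examined. Of 11 genes fixed as markers of HEK293 cells, 9 were detected, the keratin, vimentin and neurofilament genes among them, and PAX2 and LHX1 were not. Of 12 markers of blood cells, endothelium and fibroblasts, only PECAM1 was detected. Its log2 change was -0.10 (adjusted p = 0.513).

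No ribosomal protein probe passed the test between the groups. Signals were background-corrected, quantile-normalized and put on the log2 scale, and SNRK was compared with GFP by limma over all 14964 detected probes, with Benjamini-Hochberg adjustment and a threshold of 0.05. Of the 91 member probes, 0 rose and 0 fell, whereas 12.9% of all tested probes passed (6.88% higher, 6.06% lower). With an unadjusted p under 0.05 there were 8 member probes (8.79%), against 31.1% of all tested probes. In 19 member probes (20.9%) the 3 SNRK values lay entirely above or below the 3 GFP values, against 36.4% of all tested probes. Of these 19, 11 were higher in SNRK and 8 lower, against backgrounds of 18.6% and 17.8%. Over 17 alternative analyses between 0 and 6 member probes passed, 6 of them with array weights, where 4266 of all tested probes passed.

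Nor was there a common direction in the normalized values. Their median log2 change was -0.0017, with 45 probes above 0 and 46 below, and the median over all tested probes was 0.0037. For the 40S subunit the median was -0.02 over 35 probes, and for the 60S subunit 0.01 over 50. The middle 50% of member changes ran from -0.08 to 0.05, against -0.15 to 0.17 over all tested probes. Changes under 0.2 in size on the log2 scale made up 84.6% of the members and 59.0% of all tested probes. Only RPL14 changed by over 0.5, against 9.04% of all tested probes. Quantile normalization gives every array the same set of values, so part of a shift shared by many bright probes could be lost. With median scaling, which does not force this, the median was 0.01 over the members and 0.03 over all tested probes.

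The arrays were precise enough to bound most of these changes in normalized signal. The 95% interval of the change had a median half-width of 0.19 on the log2 scale, and 0.24 over all tested probes. It lay between -0.5 and 0.5 for 82 of the 91 probes, and between -1 and 1 for all 91. The lowest bound was that of RPL14, -0.95, and the highest that of 1 RPL32 probe, 0.55. An interval says what change in normalized signal the arrays would still allow, and a p above the threshold does not show that the groups were alike. Quantile normalization gives the same value to probes of the same rank on different arrays, so at the bright end normalized values repeated. Spreads and intervals there thus rest on ranks among few probes. RPS29 probe ILMN_1738243 had 14.93 on all 3 GFP arrays, from signals of 31288, 31291 and 30781. Whether signals this bright still follow the message level was not tested, so the intervals do not bound changes in message.

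**Figure D1:**
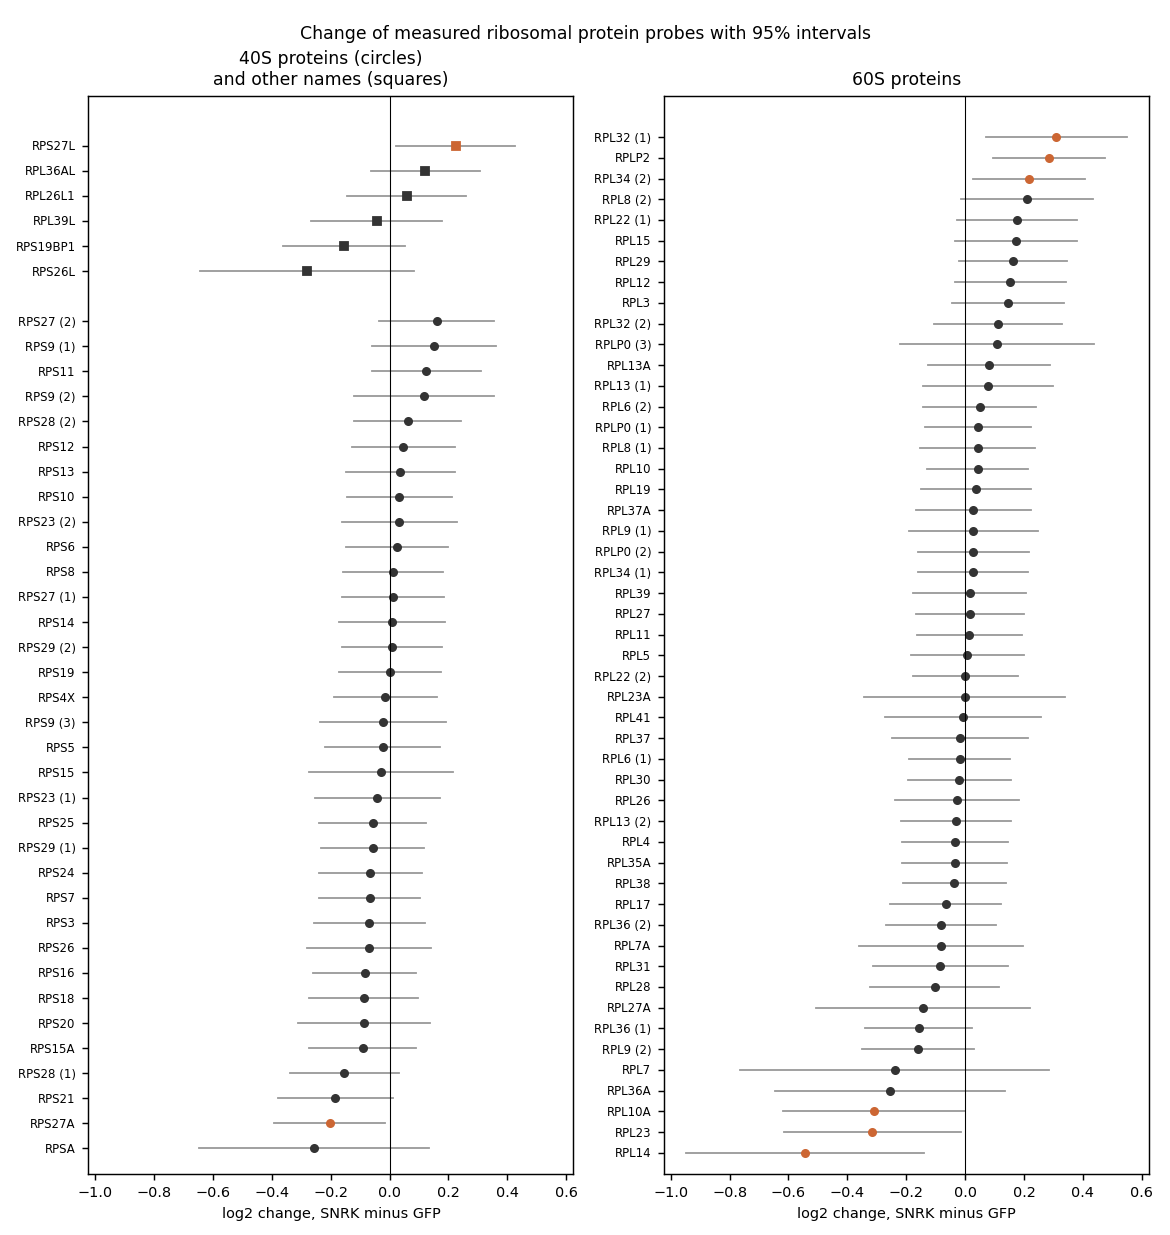
Log2 change from GFP to SNRK (horizontal axis) of 90 of the 91 detected ribosomal protein probes, with its 95% interval from limma, for 40S proteins and other names (left) and 60S proteins (right). Orange marks the 8 probes with an unadjusted p under 0.05, numbers in brackets tell probes of 1 gene apart, and all other intervals cross 0.

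Since many members lie at the bright end of the scale, they were also set beside other bright probes. Of 51 member probes with a mean normalized log2 signal of 13 or more, 0 passed and 2 had an unadjusted p under 0.05 (3.92%). Among the 246 other probes that bright, 4 rose and 4 fell, and 10.2% had an unadjusted p under 0.05. The groups did not overlap in 19.6% of the bright members and 29.3% of the other bright probes. The median spread within groups (SD, log2 scale) was 0.056 in the bright members and 0.061 in the other bright probes, against 0.13 over all tested probes. The median size of the change was 0.04 and 0.06 in these sets of bright probes. The other bright probes thus lay between the bright members and all tested probes in each of these measures.

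**Figure D2:**
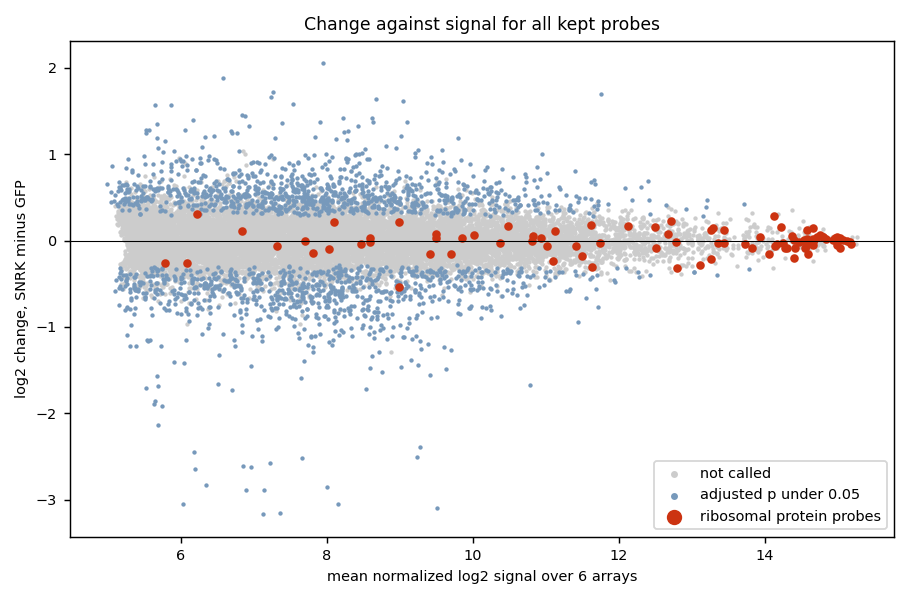
Log2 change from GFP to SNRK against the mean normalized log2 signal over 6 arrays, for all 14964 tested probes. Ribosomal protein probes (red) crowd at the bright end close to 0, where few probes of any kind passed the test (blue).

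Among the 60S proteins, RPLP2 came closest to the threshold. RPLP2 forms, with RPLP0 and RPLP1, the stalk that recruits elongation factors to the ribosome. Its probe, ILMN_1776862, read 16087, 15710 and 16245 on GFP 1 to 3 and 20556, 20889 and 19260 on SNRK 1 to 3. All SNRK arrays were higher than all GFP arrays. After normalization its log2 level was 13.98 ± 0.07 in GFP and 14.27 ± 0.06 in SNRK (SD, 3 arrays each), a 1.22-fold difference (log2 change 0.29, 95% interval 0.10 to 0.48, limma adjusted p = 0.0576). RPLP2 passed in 8 of 17 alternative analyses, the one from the authors' deposited normalized table among them, and its change stayed between 0.25 and 0.37 in all 17.

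RPLP0, the protein on which the stalk is built, had 3 probes and none that differed in this way. ILMN_1709880 had a log2 change of 0.03, ILMN_1675522 of 0.04 and ILMN_1748471 of 0.11 (adjusted p = 0.852, 0.729 and 0.645). The groups overlapped at each of these probes.

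RPL14, a structural protein of the 60S subunit, had the largest change in size of all members, in the other direction. Its probe, ILMN_1726460, read 706, 786 and 607 on GFP 1 to 3 and 501, 403 and 605 on SNRK 1 to 3. Every SNRK array was below every GFP array, but SNRK 3 and GFP 3 differed by less than 2 units. The log2 level was 9.25 ± 0.15 in GFP and 8.71 ± 0.37 in SNRK (log2 change -0.54, 95% interval -0.95 to -0.14, adjusted p = 0.0782). RPL14 passed in 6 of 17 alternative analyses. Its change was -0.72 without SNRK 3 (adjusted p = 0.0203) and -0.35 without SNRK 2 (adjusted p = 0.15), so its size depended on which SNRK array was left out.

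The other 60S probes with an unadjusted p under 0.05 were those of RPL32, RPL34, RPL23 and RPL10A. The RPL32 probe was dim, and those of RPL23 and RPL10A varied widely within groups. The RPL34 probe was tighter, with SDs of 0.03 in GFP and 0.09 in SNRK (log2 scale), and its groups did not overlap. RPL32 probe ILMN_1769741 read 138, 140 and 139 in GFP and 165, 157 and 162 in SNRK, little above background. Its log2 change was 0.31 (adjusted p = 0.0863), 0.14 without background correction and 0.08 in the authors' deposited normalized table. It passed in 2 of 17 alternative analyses, with median scaling, where the change was 0.40, and with array weights. The other RPL32 probe, ILMN_1798636, had 0.11 (adjusted p = 0.465). RPL34 likewise had 1 probe with a change of 0.22 (ILMN_1815133, adjusted p = 0.117) and 1 with 0.03 (ILMN_1774823, adjusted p = 0.855). The dimmer probe of the pair thus had the larger change in RPL32 and in RPL34.

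RPL23, a 60S protein that can also bind the p53 regulator MDM2, read 9514, 7904 and 6816 on GFP 1 to 3 and 6282, 5419 and 7616 on SNRK 1 to 3. RPL10A, part of the L1 stalk of the 60S subunit, read 3855, 4040 and 3139 in GFP and 2781, 2381 and 3549 in SNRK. The groups overlapped for both genes, since SNRK 3 lay above GFP 3. Both were named after their values were seen. Their log2 changes were -0.32 and -0.31 (adjusted p = 0.143 and 0.158). Without SNRK 3 the change of RPL10A was -0.44 (adjusted p = 0.0386) and that of RPL23 -0.42 (adjusted p = 0.0562). Without SNRK 2 they were -0.19 and -0.22 (adjusted p = 0.368 and 0.333). Both passed with array weights.

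In the 40S subunit RPS27A, RPS21 and 1 probe of RPS28 were among the probes with the smallest p-values, each with lower values in SNRK. RPS27A is made as a fusion with ubiquitin and so supplies both. Its probe, ILMN_1755883, read 24770, 23432 and 20801 on GFP 1 to 3 and 20463, 20152 and 20872 on SNRK 1 to 3. After normalization the groups did not overlap, with log2 levels of 14.50 ± 0.08 and 14.30 ± 0.04 (log2 change -0.20, 95% interval -0.39 to -0.01, adjusted p = 0.135). The signals before normalization did overlap, because SNRK 3 read higher than GFP 3. RPS27A passed in 3 of 17 alternative analyses, without background correction, with an intensity trend and robust moderation, and in the authors' deposited normalized table, and its change was -0.13 with cyclic loess.

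For RPS21 the log2 change was -0.18 (adjusted p = 0.184), and for RPS28 -0.15 at ILMN_1651228 (adjusted p = 0.236). RPS28 was higher in SNRK at its other probe, ILMN_1684258 (log2 change 0.06, adjusted p = 0.632). FAU encodes a ribosomal protein made as a fusion with a ubiquitin-like protein, and its probe had 0.03 (adjusted p = 0.857).

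**Figure D3:**
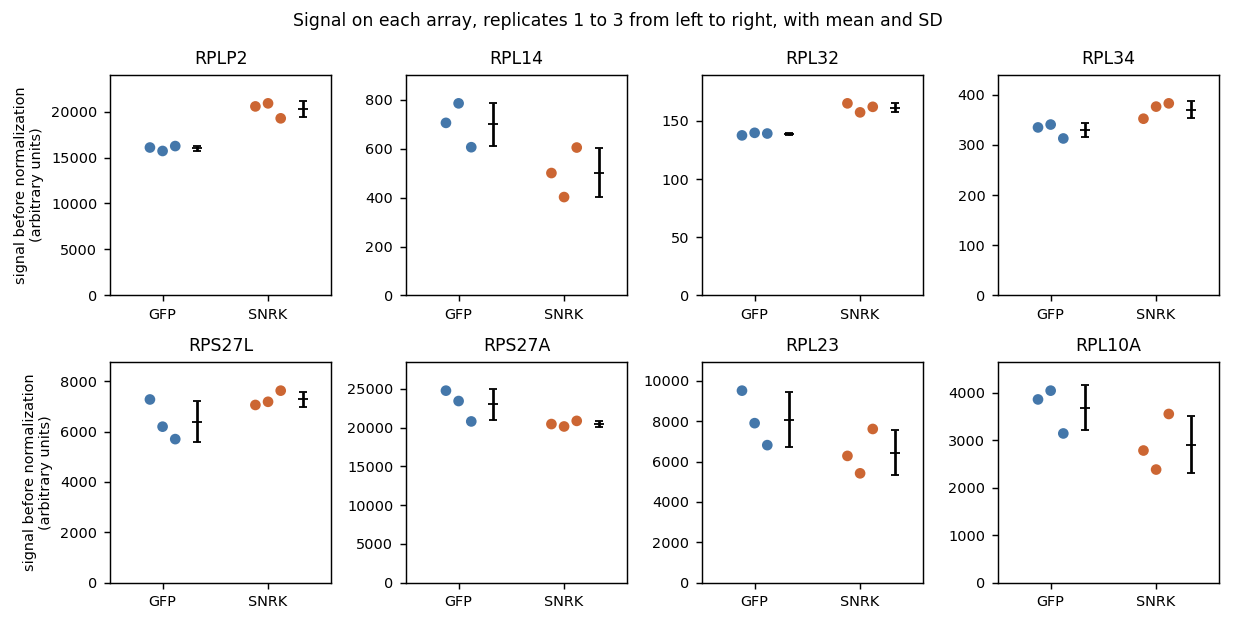
Signal before normalization on each array (points, GFP blue and SNRK orange, replicates 1 to 3 from left to right) with the group mean and SD (black), for the 8 ribosomal protein probes with an unadjusted p under 0.05. The SNRK values of RPLP2 stand clear of the GFP values, while those of RPL23 and RPL10A overlap them.

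Several members are known for roles beyond translation. RPL5 and RPL11 form a particle with 5S ribosomal RNA that can bind and inhibit MDM2 when ribosome assembly fails. RPL5 read 24920, 27341 and 25894 in GFP and 27094, 26689 and 25578 in SNRK, and RPL11 read 33914, 32037 and 33094 against 32056, 36256 and 33088. The groups overlapped for both, with log2 changes of 0.01 for RPL5 (95% interval -0.18 to 0.20) and 0.01 for RPL11 (95% interval -0.16 to 0.19).

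RPS6, the ribosomal substrate of the S6 kinases, read 33197, 31363 and 32372 in GFP and 31508, 34546 and 32784 in SNRK (log2 change 0.02, 95% interval -0.15 to 0.20). For RPS19, mutated in Diamond-Blackfan anaemia, the log2 change was 4.5e-05 and the 95% interval -0.17 to 0.17. RPS14, whose loss marks the 5q- syndrome, had 0.01, and RPL13A, which leaves the ribosome to silence messages after interferon-gamma, had 0.08. The groups overlapped in all of these. RPSA, also known as a laminin receptor precursor, was read by a dim probe at 121 to 154 and had -0.26 with a wide interval (-0.65 to 0.13), and -0.10 without background correction.

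The paralogs were split between detected and not detected probes. Of the 9 pairs of parent and paralog examined, both members were detected in RPS27 and RPS27L, RPL26 and RPL26L1, RPL36A and RPL36AL, and RPL39 and RPL39L. RPL7L1 had no probe under that name. RPS27L is a p53-inducible paralog of RPS27. It read 7271, 6192 and 5698 on GFP 1 to 3 and 7053, 7179 and 7621 on SNRK 1 to 3.

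The normalized RPS27L groups did not overlap, although GFP 1 read above SNRK 1 and SNRK 2 before normalization. The log2 change was 0.22 (95% interval 0.02 to 0.43, adjusted p = 0.125), and it passed in 1 of 17 alternative analyses, with an intensity trend and robust moderation. RPS27 had 0.16 and 0.01 at its 2 probes (adjusted p = 0.242 and 0.935). As the start sites above show, RPS27 begins with the pyrimidine run and RPS27L does not.

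RPL36AL was 0.12 higher in SNRK on the log2 scale without passing (adjusted p = 0.338), and its parent RPL36A, read by a dim probe at 130 to 161, had -0.26 (adjusted p = 0.341), and -0.09 without SNRK 2. RPL26L1 and RPL26 had 0.06 and -0.03, and RPL39L and RPL39 had -0.04 and 0.02, with overlapping groups in each. RPL3, RPL7, RPL22 and RPS4X, whose paralogs were not detected or had no probe, had changes of 0.14, -0.24, 0.18 and 0.001 (2 probes of RPL22) and -0.01, and none passed. The change of RPL7 was 0.01 without SNRK 2. RPS19BP1, whose product AROS activates the deacetylase SIRT1, had -0.16 (adjusted p = 0.279).

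Genes with more than 1 detected probe gave a further view of the error. In 7 of 14 such genes the probes had changes of the same sign, and in the other 7 of opposite sign. The largest distance between probes of 1 gene was 0.22, in RPS28, and the next were 0.20 in RPL32 and 0.19 in RPL34. The brightest member probes were those of RPL38, RPL6 and RPS19, with signals between 33989 and 38165, and log2 changes of -0.04, -0.02 and 4.5e-05.

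A small set of members varied widely between arrays of the same group. With a limit chosen after the values were seen (within-group SD over 0.15 at a mean log2 signal of 8 or more), 8 member probes qualified: RPL7, RPL14, RPS26L, RPL23A, 1 of 3 probes of RPLP0, RPL10A, RPL23 and RPL7A. They were 9.52% of the 84 members at that signal, against 21.7% of all tested probes at that signal. SNRK 2 was the lowest of the 6 arrays for 7 of these 8, all but RPLP0, for which it was the highest. Over all probes that varied as widely, SNRK 2 was the lowest in 36.8%.

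RPL7, for example, read 2663, 2973 and 1976 on GFP 1 to 3 and 2060, 1468 and 2924 on SNRK 1 to 3, so that SNRK 3 was 1.96-fold above SNRK 2 after normalization. RPL23A read 1859, 2096 and 1774 in GFP and 1843, 1482 and 2301 in SNRK, and RPL7A read 6329, 6334 and 5679 against 6005, 4648 and 6618. In both, the SNRK group held the lowest and the highest array of all 6. RPS26L read 11139, 9809 and 8925 in GFP and 8543, 6080 and 9928 in SNRK. Its log2 change was -0.28, and -0.09 without SNRK 2.

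**Figure D4:**
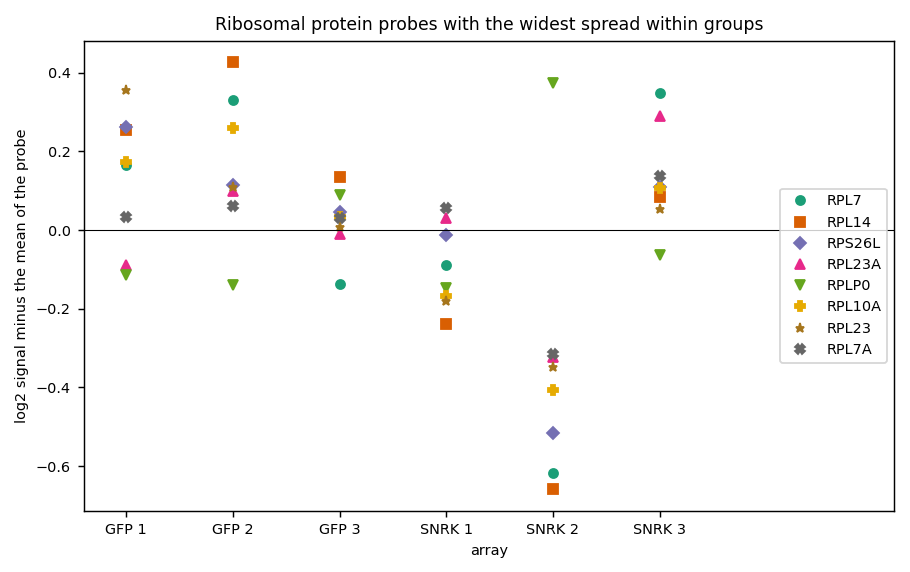
Normalized log2 signal minus the mean of the probe (vertical axis) on each of the 6 arrays, for the 8 ribosomal protein probes with the widest spread within groups. SNRK 2 is the lowest array for 7 of the 8 and the highest for RPLP0.

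Members with and without the pyrimidine run had medians close to 0. The median log2 change was 0.0049 over the 50 probes of genes with the run at an annotated start and 0.01 over the 24 probes of genes without it. Of these, 4 and 3 had an unadjusted p under 0.05. A further 17 probes belonged to genes outside the start site table (median -0.02).

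Genes that work with ribosomal proteins were read from 4 lists, each gene by its brightest detected probe. Among translation partners known to carry TOP messages, such as elongation factors, 1 of 20 rose and 0 fell, with a median log2 change of 0.06. This is near the 6.88% of all tested probes that rose, and is no result about the list. The gene that rose was PABPC1, which encodes the cytoplasmic poly(A)-binding protein. It read 7625, 8561 and 8471 in GFP and 11051, 12111 and 10392 in SNRK, with every SNRK array higher, and rose 1.38-fold (log2 change 0.47 ± 0.11 SE, limma adjusted p = 0.0322). RACK1, which sits on the 40S subunit, had -0.03, and the elongation factor genes EEF1A1 and EEF2 had 0.04 and -0.06.

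Of 12 chaperones and importers of ribosomal proteins, 2 rose and 0 fell, with a median log2 change of 0.18, where 6.88% of all tested probes rose and 6.06% fell. So few calls alone show nothing particular to the list. Its median lay just above the upper quartile of all tested probes (0.17, with a median of 0.0037), and the list was not tested as a set. The median also rests on the choice of probe. PDCD2 had 0.02 at its brightest probe and 0.33 and 0.18 at its others. BCCIP had 0.08 at its brightest probe and -0.21, -0.12 and 0.10 at its others. For TNPO1 the values were 0.19 at the brightest probe and 0.10 and 0.08 at the others. HEATR3, which carries RPL5 and RPL11 to the nucleus, rose 1.35-fold at the brighter of its probes, by 0.44 ± 0.10 (SE) in log2 units (adjusted p = 0.0312). The signals there were 558, 636 and 586 in GFP and 778, 801 and 689 in SNRK. The second HEATR3 probe, close to background, had a fold of 1.02 (adjusted p = 0.942). The importin gene IPO9 rose 1.51-fold, from 602, 697 and 733 in GFP to 934, 1153 and 816 in SNRK (log2 change 0.59 ± 0.16 SE, adjusted p = 0.0491).

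Of 17 enzymes that modify ribosomal proteins, 3 rose and 1 fell, with a median of 0.02, against 6.88% and 6.06% of all tested probes. ZNF598, a ubiquitin ligase that marks 40S proteins on collided ribosomes, was detected on no GFP array and on all 3 SNRK arrays. It read 105, 98.4 and 102 in GFP and 149, 187 and 122 in SNRK, and was at least 1.84-fold higher in the background-corrected, normalized values (adjusted p = 0.0143), where the bound sets the SNRK mean against the lowest detected signal of the GFP arrays. The bound holds for that processing alone: the fitted log2 change was 0.45 without background correction and 0.25 in the authors' deposited normalized table. The gene entered the test only through its detection in SNRK, so that a rise was favoured by the filter. USP10 and USP21, which remove ubiquitin from 40S proteins, rose 1.37-fold and 1.32-fold (adjusted p = 0.0296 and 0.0374). The log2 change of USP21, 0.41, was 0.24 in the authors' deposited normalized table. USP21 had a second probe with a fold of 1.06 (adjusted p = 0.717).

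RPS6KA1, a kinase gene of the RSK family whose products phosphorylate RPS6, fell to 0.717 of its GFP level (log2 change -0.48 ± 0.12 SE, adjusted p = 0.0337). It read 255, 239 and 201 in GFP and 187, 199 and 191 in SNRK, with GFP 3 close to SNRK 2. Its log2 change was -0.29 without background correction and -0.19 in the authors' deposited normalized table. RPS6KB1 and RPS6KB2, the S6 kinase genes themselves, had 0.02 and 0.14 and did not pass. Of 8 genes of 5S particle assembly and its link to MDM2, 0 rose and 0 fell in limma, where 12.9% of all tested probes passed, and MDN1 alone had an unadjusted p under 0.05 (log2 change 0.45, adjusted p = 0.146). MDM2 itself had 0.14 (adjusted p = 0.399).

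Each of these 7 calls among the partner genes was lost without 1 or more single arrays. PABPC1, HEATR3, IPO9, USP10 and RPS6KA1 lost theirs without GFP 1, GFP 2, SNRK 1 or SNRK 2, USP21 without these or SNRK 3, and ZNF598 without GFP 1, GFP 2 or SNRK 1. The highest adjusted p over the alternatives was 0.168, for IPO9. The calls among all probes numbered 1937 with all arrays, 339 without GFP 1, 298 without GFP 2, 409 without SNRK 1, 1112 without SNRK 2 and 2683 without SNRK 3.

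**Figure D5:**
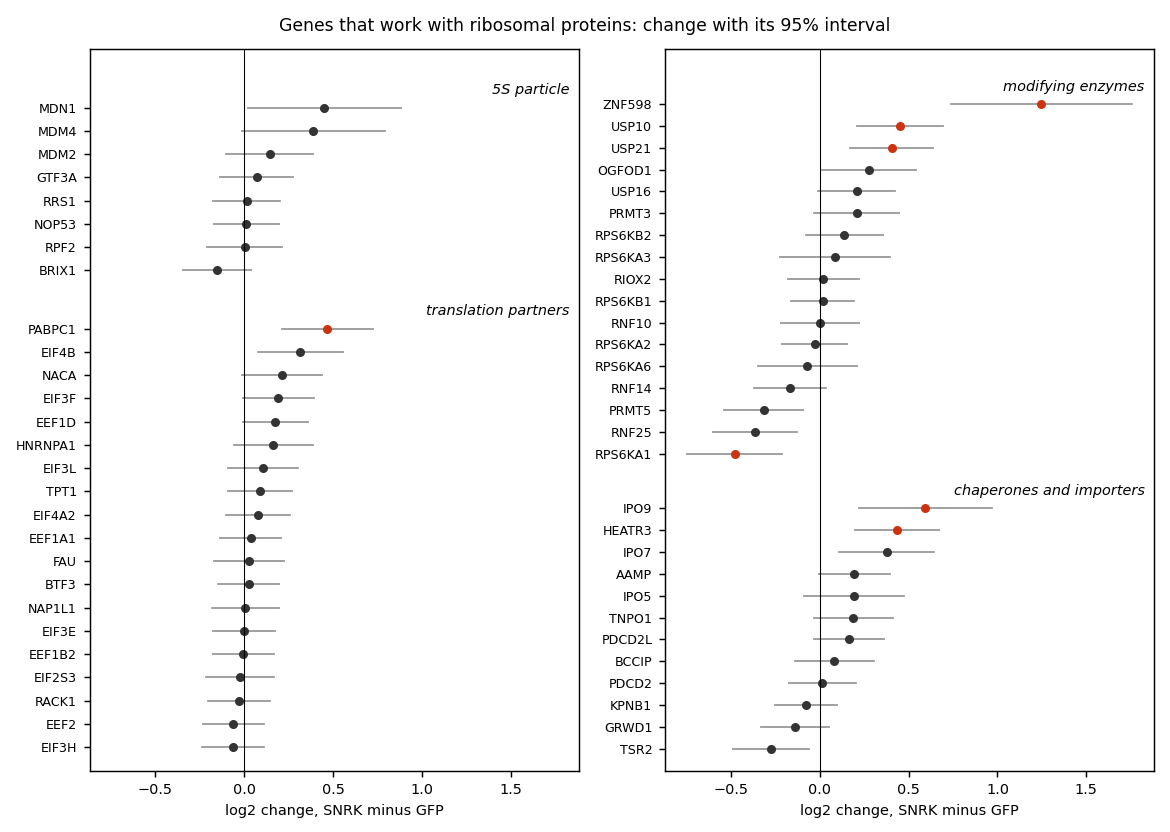
Log2 change from GFP to SNRK with its 95% interval for 56 genes of 4 lists that work with ribosomal proteins. Red marks the 7 genes that passed the test; ZNF598 is plotted at its fitted change, which is not a measure of its size because the gene was not detected in GFP.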

How the data were processed

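Gene expression was measured in HEK293 cells on 6 single-colour Illumina bead arrays. The authors deposited 1 table of linear, non-normalized intensities, in which every probe has a detection p-value on every array, and a second table of intensities with a median of 170 on every array. The second table kept the probe order of each array, and how it was normalized is unknown here. The submitters' processing notes name lumi without its version or steps. The deposited detection p-value fell with rising signal on each array.

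Intensities were processed in R 4.3.3 with limma 3.58.1 by neqc (offset 16) with negative controls inferred from detection p-values. Probes with a detection p under 0.01 on all 3 arrays of a group were kept. The test was two-sided, with the group as its only term. It was tested on simulated data.

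The members and lists were chosen with earlier results of these data known. Named were members with the smallest p in each subunit, the brightest and dimmest, those with disagreeing probes, paralogs, members with special roles, and called partner genes. RPL23, RPL10A, the members of wide spread, RPLP0 and the partner genes that were not called were named after their values were seen. The number of arrays limits the precision. Sequences are RefSeq GRCh38.p14, matched by symbol for 62 of 80 names. Some items are not reported here and are left out of the plots, while the counts and medians include them.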

Additional observations from a re-analysis of the deposited data

How the results depend on the processing

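Over 17 alternatives, the median log2 change of the members stayed between -0.01 and 0.02. None of the 17 turned the direction of a called value. The count of member probes past the threshold, 0 higher and 0 lower in the reported analysis, was 1 and 2 without background correction and in the authors' normalized values, 1 and 1 with offset 50 by either background model (maximum likelihood was added after seeing the data), 2 and 0 with median scaling, 1 and 0 with cyclic loess, 2 and 3 with an intensity trend and robust moderation, and 2 and 4 with array weights. Leaving out single arrays gave 0 higher and 0 to 2 lower. Same-numbered arrays did not deviate together (correlations -0.06, -0.13 and -0.30), and the fit with the replicate block gave 0 and 0, with 731 of 14964 probes called in all. Between differently numbered arrays the correlations ran from -0.21 (GFP 1 with SNRK 2) to 0.29 (GFP 3 with SNRK 2). Over the members alone, all pairs ran from -0.59 (GFP 3 with SNRK 3) to 0.64 (GFP 3 with SNRK 2). What the arrays of such pairs share was not tested.

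Among partner genes, the replicate block and the missing detection filter each left 0 higher translation partners and 0 higher chaperones. Translation partners had 2 higher with no background correction, offset 50, maximum likelihood, median scaling, trend or weights, and 3 in the authors' values. Chaperones had 4 higher with weights, and 1 lower without background correction, with maximum likelihood, trend or weights, and in the authors' values. Modifying enzymes had 0 higher and 0 lower with no detection filter and 1 and 0 with the block; 2 were lower without background correction, with maximum likelihood, detection on all 6 arrays, trend and the authors' values, and 3 with offset 50 or weights. The 5S list had 1 higher with weights. Without single arrays, 0 to 2 partners, 0 to 4 chaperones, 0 to 1 of the 5S list, and 0 to 3 higher and 0 to 2 lower enzymes passed. The causes were not tested.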
